A study of Mus musculus with 9 samples.

Results

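The mitochondrial ribosome (mitoribosome) makes the few proteins that mitochondrial DNA encodes, all of them subunits of the respiratory chain and ATP synthase. Its small subunit reads the messenger RNA, its large subunit joins the amino acids, and every one of its proteins is encoded in the nucleus, made in the cytosol and imported. Liver is rich in mitochondria, and thyroid hormone is a classical stimulus of hepatic mitochondrial respiration. The genes described here are those whose symbol starts with Mrpl or Mrps followed by a digit. They were taken from the array annotation, and a probe was kept if 3 or more of the 9 arrays gave it a detection p-value under 0.05. Of 132 such probes 112 passed, among 18581 of all 45281 probes, and they stand for 72 of 76 gene symbols. Of the 20 probes that did not pass, 16 were detected on no array and 4 on 1 array. Mrpl19, Mrpl32, Mrpl45 and Mrps14 had no probe that passed. For each gene the probe with the highest mean signal was used, and all 72 of these probes were detected on all 9 arrays, so no gene entered through a single group. The symbols did not match subunits in all cases: Mrps18a and Mrps30 encode proteins of the large subunit, which gives 47 genes of the large and 25 of the small subunit.

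RNA from liver of male C57BL/6 mice aged 8 weeks was measured on Illumina bead arrays in 3 groups of 3 arrays each. The first group was euthyroid. The second, called T3 here, had received triiodothyronine, the active thyroid hormone, for 3 days and is labelled hyperthyroid. The third was also hyperthyroid and had in addition a knockdown of FoxO1 in liver, by small interfering RNA (siRNA) injected hydrodynamically into the tail vein. No group with a control siRNA or a control injection is named, so the injection and the knockdown of FoxO1 cannot be told apart. No T3 dose is given in the sources used here. Whether the arrays of a group come from different mice is not stated, and the p-values therefore cover only the variation among these samples, which may be technical. The median signal of an array lay between 109 and 127, between 16481 and 18357 probes were detected, and arrays of the same group correlated at 0.986 or more over the tested genes. Foxo1, the target of the siRNA, had a normalised log2 signal of 8.77 ± 0.08 (SD, n = 3) in euthyroid liver, 9.54 ± 0.29 with T3 and 8.47 ± 0.06 with T3 and siRNA, a fall of 2.10-fold from T3 (adjusted p = 0.00172). Foxo1 itself was higher with T3 than in euthyroid liver, by 0.77 (adjusted p = 0.0082). With T3 and siRNA it differed from euthyroid liver by -0.30, which did not pass (adjusted p = 0.152). All 11 measured hepatocyte markers, albumin among them, were detected on all 9 arrays. Changes are given as log2 differences with their SE from a limma fit. Their adjusted p-values come from Benjamini-Hochberg adjustment across the 10408 genes in the fit, and genes under 0.05 are called.

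Promoters of mitoribosomal genes are shown because the nuclear factors known to control mitochondrial genes, NRF1 and the ETS factor GABPA, bind short motifs near the start of transcription. The 4 stretches printed are the 250 bases before the start for the genes with the lowest adjusted p-value in any comparison that had an entry in the RefSeq promoter table (GRCm38.p6). The start is that of the gene's first entry there. For Mrpl14 and Mrpl23 the stretch lies inside the gene as RefSeq places it, so the bases before the gene's outermost start are not shown. For Mrpl58 the end of the stretch, with its ETS match, also lies inside the gene, downstream of that outermost start. Capitals mark matches to the NRF1 core TGCGCA, the ETS core CCGGAA or the YY1 core ATGGCG, on either strand.
Mrpl14 (chr17:45686099-45686348, + strand): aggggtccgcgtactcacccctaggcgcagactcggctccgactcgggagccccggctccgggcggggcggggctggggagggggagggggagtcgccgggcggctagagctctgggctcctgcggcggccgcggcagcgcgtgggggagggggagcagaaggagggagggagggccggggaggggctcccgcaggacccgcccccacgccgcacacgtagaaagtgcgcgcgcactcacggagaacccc
Mrps5 (chr2:127587176-127587425, + strand): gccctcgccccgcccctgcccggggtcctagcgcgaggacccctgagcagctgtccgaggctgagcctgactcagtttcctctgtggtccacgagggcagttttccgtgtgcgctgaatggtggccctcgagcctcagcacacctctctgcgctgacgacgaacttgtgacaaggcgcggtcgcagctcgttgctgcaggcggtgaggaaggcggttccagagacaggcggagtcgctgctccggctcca
Mrpl58 (chr11:115403502-115403751, + strand): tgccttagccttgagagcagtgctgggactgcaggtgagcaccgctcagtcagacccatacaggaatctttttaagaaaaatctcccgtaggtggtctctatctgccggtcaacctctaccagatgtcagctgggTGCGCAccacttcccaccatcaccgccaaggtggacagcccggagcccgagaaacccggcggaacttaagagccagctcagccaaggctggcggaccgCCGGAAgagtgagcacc
Mrpl23 (chr7:142532782-142533031, + strand): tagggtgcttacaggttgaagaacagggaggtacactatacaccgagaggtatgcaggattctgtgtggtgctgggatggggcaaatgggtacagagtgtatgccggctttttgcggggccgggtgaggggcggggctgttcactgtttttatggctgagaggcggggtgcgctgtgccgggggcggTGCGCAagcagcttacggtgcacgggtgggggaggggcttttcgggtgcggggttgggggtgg
The stretches of Mrpl14 and Mrps5 held none of the 3 motifs. That of Mrpl58 held the NRF1 core 115 bases and the ETS core 17 bases before the start, and that of Mrpl23 the NRF1 core 63 bases before it. Of the 72 genes 64 had an entry, with 70 windows of 250 bases before to 50 after the start. The ETS core was in 58.6% of these windows, against 14.9% of all 32851 promoter windows and 25.7% of the 10794 windows of genes tested here. The NRF1 core was in 28.6% of the mitoribosomal windows, against 7.76% of all windows and 1399 of the 10794, and the YY1 core in 27.1%, against 8.93% and 14.1%. At least 1 of the 3 motifs was in 80.0% of them, against 26.3% and 42.1%. Matches of different motifs overlapped in none of the 70 windows. Among the 7 windows of the genes that were lower with T3, described next, 5 held the NRF1 core, 3 the ETS core and 1 the YY1 core. Mrps34, also lower with T3, had no entry. Of the 57 windows of genes called in no comparison, 13 held the NRF1 core, 34 the ETS core and 15 the YY1 core. The difference was not tested. A match is a description of the letters and does not show that a factor binds.

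Set against euthyroid liver, the T3 group shows which mitoribosomal transcripts differ after 3 days of hormone. Of the 72 genes, each measured by its brightest probe, 8 fell (11.1%), by 1.44-fold or less, and 0 rose in the limma fit. Over all genes tested 10.6% fell and 7.8% rose, so the share that fell was close to the background. An unadjusted limma p under 0.05 was found for 21 of the 72 (29.2%, against 35% of all genes). In whole tissue, fewer cells of a type and less of a transcript per cell cannot be told apart. The genes that fell were Mrps34, Mrpl14, Mrpl23, Mrps18b, Mrps6, Mrps26, Mrps17 and Mrps18a. The median change of the 72 genes was -0.07, against -0.05 for all genes tested. Only Mrpl39 differed by more than 1.5-fold (1.39% of the 72 genes, against 13.1% of all genes), and it missed the threshold (0.59 ± 0.18, adjusted p = 0.0532). For 58 of the 72 genes (80.6%) the 95% interval of the change, not adjusted for the number of genes, lay within 1.5-fold in both directions, against 46.5% of all genes. The median SE of the mitoribosomal changes was 0.11 and that of all genes 0.15.

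**Figure D1:**
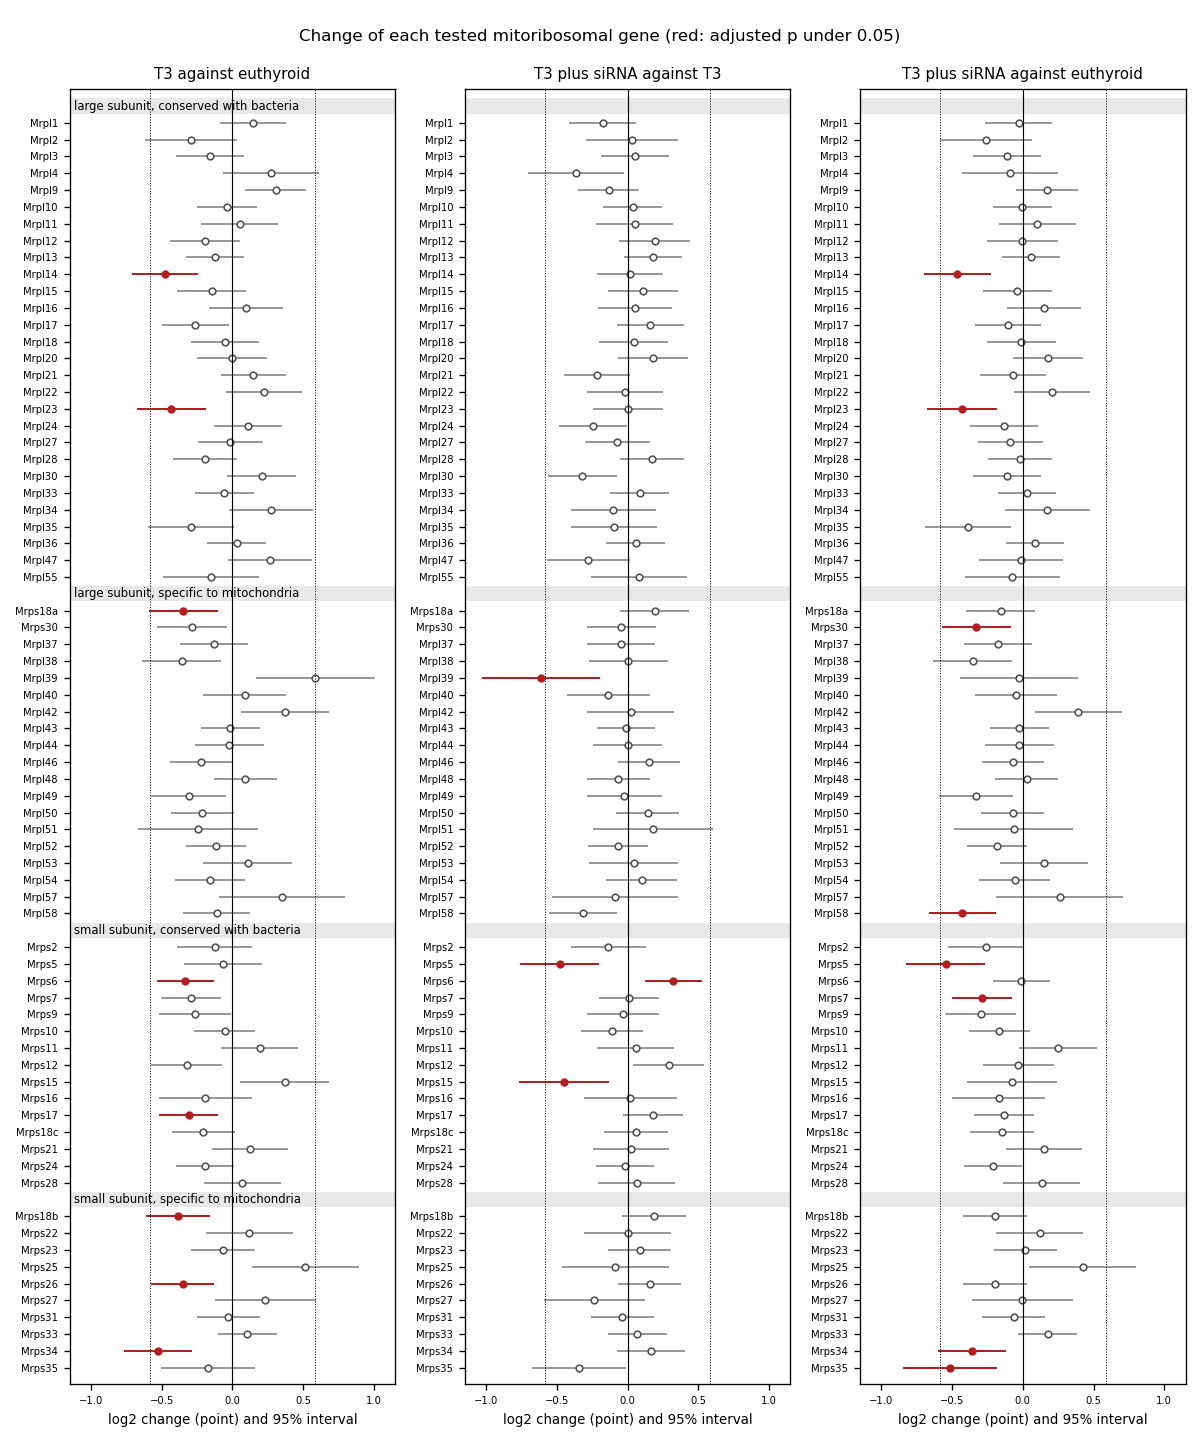
Each row is 1 of the 72 tested mitoribosomal genes, in 4 groups by subunit and kinship to bacterial ribosomal proteins, and each panel 1 comparison; points are log2 changes, bars their 95% intervals, red marks an adjusted p under 0.05 and dotted lines mark 1.5-fold. The 8 genes called with T3 all lie to the left of 0, and for 58 genes the interval stays between the dotted lines.

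Mrps34, a protein that is found in the small subunit of mitochondria and not in bacteria, showed the largest called fall. Its log2 signal was 12.88, 12.80 and 12.88 on the 3 euthyroid arrays, 12.34, 12.17 and 12.49 with T3, and 12.53, 12.48 and 12.48 with T3 and siRNA. Every array with T3, with or without siRNA, lay under every euthyroid array, and the T3 and siRNA groups overlapped. The change with T3 was -0.52 ± 0.10, a fall of 1.44-fold (adjusted p = 0.0109), and it was called in all 18 alternative settings.

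Mrpl14, a conserved protein of the large subunit at the interface with the small one, read 12.11, 11.90 and 12.04 in euthyroid liver, 11.61, 11.50 and 11.49 with T3, and 11.59, 11.44 and 11.62 with T3 and siRNA. All arrays that had received T3, with or without siRNA, lay under all euthyroid arrays. The change with T3 was -0.48 ± 0.10 (adjusted p = 0.0137). Mrpl23, a conserved protein near the exit of the peptide tunnel, had the same order of groups. It read 12.35, 12.05 and 12.19 in euthyroid liver, 11.73, 11.83 and 11.73 with T3, and 11.76, 11.84 and 11.69 with T3 and siRNA. Its change with T3 was -0.43 ± 0.11 (adjusted p = 0.0233), and the call was lost in 6 of the 18 settings.

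Mrps6, a conserved protein of the small subunit platform, was the only gene called both with T3 and with siRNA added to T3. It read 9.91, 9.89 and 9.97 in euthyroid liver, 9.58, 9.62 and 9.58 with T3, and 9.92, 9.86 and 9.96 with T3 and siRNA. The T3 arrays lay apart under both other groups, which overlapped each other. The change was -0.33 ± 0.09 with T3 (adjusted p = 0.0273) and 0.32 ± 0.09 with siRNA added (adjusted p = 0.03), both using the same 3 T3 arrays. The first call was lost in 8 and the second in 9 of 18 settings.

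The 3 relatives of bacterial protein S18 were measured by Mrps18a, Mrps18b and Mrps18c, of which the first now belongs to the large subunit and the other two sit at different sites of the small one. Mrps18b changed by -0.38 ± 0.10 with T3 (adjusted p = 0.0254) and Mrps18a by -0.35 ± 0.11 (adjusted p = 0.0489), while Mrps18c gave -0.21 ± 0.10 and did not pass (adjusted p = 0.166). On all 3 genes every T3 array lay under every euthyroid array. The call of Mrps18a was lost in 12 of 18 settings. Mrps26, a protein specific to the mitochondrial small subunit, changed by -0.35 ± 0.10 (adjusted p = 0.0344) and Mrps17, a conserved RNA-binding protein of that subunit, by -0.31 ± 0.09 (adjusted p = 0.0422). These calls were lost in 9 and 11 settings.

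**Figure D2:**
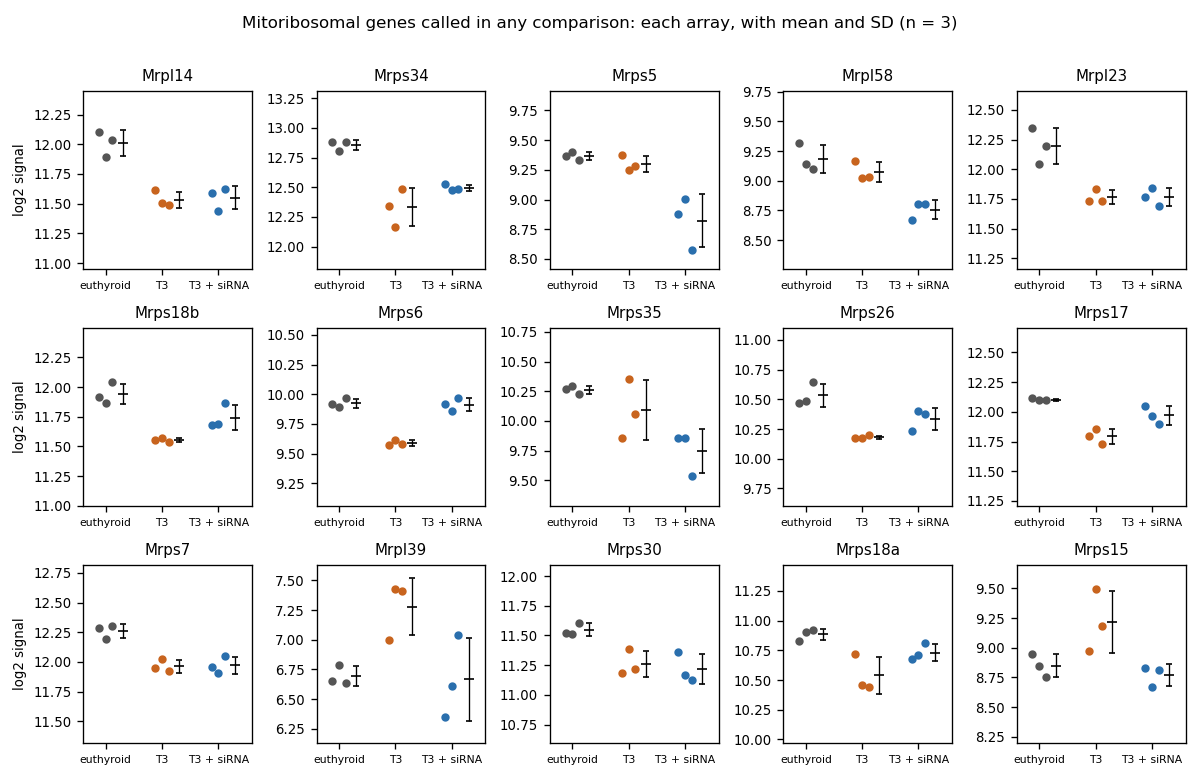
Normalised log2 signal on each array (points) with the mean and SD of each group (bars, n = 3) for the 15 mitoribosomal genes called in at least 1 comparison, ordered by lowest adjusted p; each panel spans 1.5 log2 units. Mrpl14 and Mrpl23 are low on all arrays with T3, Mrps6 only on the T3 arrays without siRNA, and Mrps5 and Mrpl58 are lowest on the siRNA arrays.

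By subunit, 3 of 47 large subunit genes and 5 of 25 small subunit genes fell with T3, with median changes of -0.05 and -0.12. These are 6.38% and 20% of the genes, on either side of the 10.6% of all genes that fell. The difference between the subunits was not tested. Of the proteins conserved with bacteria 2 of 28 fell in the large and 2 of 15 in the small subunit, and of those specific to mitochondria 1 of 19 and 3 of 10. Mrps18a and Mrps18b, though relatives of bacterial S18, were counted as specific to mitochondria and are among those that fell. Euthyroid and T3 arrays were fully separated in 35 genes (48.6%, against 40.7% of all genes), 26 of them lower with T3 (36.1%, against 24.1% of all genes) and 9 higher (12.5%, against 16.5%). The stalk of the large subunit, where translation factors dock, did not pass: Mrpl12 gave -0.19 ± 0.11 (adjusted p = 0.233), Mrpl10 -0.04 ± 0.09 (adjusted p = 0.799) and its base Mrpl11 0.05 ± 0.12 (adjusted p = 0.798). Neither did Mrps12, a protein of the decoding centre (-0.32 ± 0.11, adjusted p = 0.0674), nor Mrpl44, which has the fold of a ribonuclease III (-0.02 ± 0.10, adjusted p = 0.898). Genes with a positive change reached at most 0.59, and the largest after Mrpl39 was Mrps25 (0.51, adjusted p = 0.0587).

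The counts depended on single arrays and on the processing. Leaving out euthyroid replicate 1, 2 or 3 gave 1, 4 or 2 genes, leaving out T3 replicate 1, 2 or 3 gave 3, 5 or 2, and median scaling of the arrays gave 1. The count of 0 higher genes became 4 without background correction and offset, with the authors' normalized values or with array weights, and 3 with probes detected on all 9 arrays. It was 1 without euthyroid replicate 1 or siRNA replicate 1, and 2 without T3 replicate 1 or siRNA replicate 3.

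**Figure D3:**
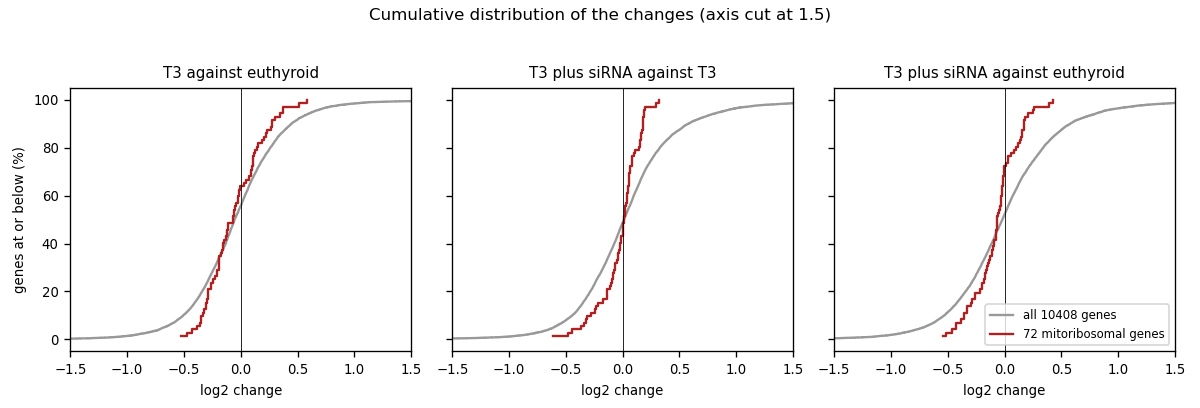
Cumulative share of genes (%) against log2 change in the 3 comparisons, for the 72 mitoribosomal genes and all 10408 genes tested. The mitoribosomal curve is steeper in each panel, and its median lies at -0.07, 0.01 and -0.07 from left to right.

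Genes with several probes gave a less uniform picture. Of the 72 genes 27 had more than 1 probe that passed, with 40 probes beside the brightest ones. A second fit over all 18581 probes called 12 of the 112 mitoribosomal probes with T3 (10.7%, against 18.6% of all probes), 7 lower and 5 higher (9.53% and 9.05% of all probes). The 5 higher probes were none of the brightest ones and belonged to Mrpl1, Mrps10, Mrps11, Mrps31 and Mrps33. For Mrps33 the dimmer probe rose by 0.46 ± 0.10 (adjusted p = 0.0131 over the probes) and the brighter one gave 0.11 (adjusted p = 0.481). For Mrps31 the 3 probes gave 0.62 (adjusted p = 0.0184), 0.14 and -0.03. For Mrps18b the called fall of the brightest probe stood beside 0.22 and 0.21 on the other two, and the mean of the 3 probes gave 0.01.

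Mrps26 was the gene whose 2 probes both fell (the brighter one with an adjusted p of 0.0432 over the probes). The dimmer one read 9.12, 8.88 and 9.25 in euthyroid liver, 8.03, 7.57 and 8.12 with T3, and 8.39, 8.80 and 8.79 with T3 and siRNA. Its T3 arrays lay under all others, and its change of -1.18 ± 0.18 (adjusted p = 0.00433 over the probes) was the largest of any mitoribosomal probe with T3, against -0.35 on the brighter probe. No gene had probes called in opposite directions, but for 13 of the 27 genes the probes differed in sign. Of the 40 other probes 31 (77.5%) had a higher change than the brightest probe of their gene, with a median difference of 0.18, against 61.6% and 0.10 for the 5346 such probes of all genes. The median of all 112 probes was 0.00. Which transcripts each probe matches was not checked.

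**Figure D4:**
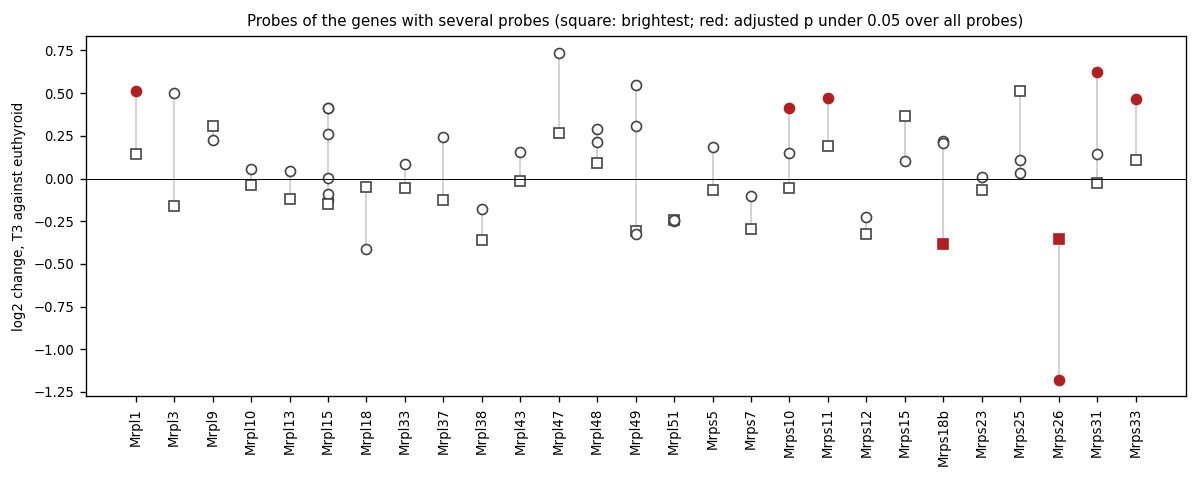
Log2 change with T3 for each probe (points) of the 27 genes with several probes; squares are the brightest probe, which stands for the gene, and red marks an adjusted p under 0.05 over all probes. The called rises are all circles, and both probes of Mrps26 are red and lie under 0.

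T3 plus FoxO1 siRNA against T3 shows which of the transcripts differ once the siRNA is added, where the injection and the knockdown of FoxO1 cannot be told apart. Of the 72 genes 1 rose, Mrps6, and 3 fell, Mrps5, Mrpl39 and Mrps15 (1.39% and 4.17%, against 11.7% and 7.72% of all genes). The median change was 0.01, as for all genes tested, and the middle 50% of the changes ran from -0.09 to 0.08, against -0.23 to 0.25 for all genes. The 95% interval lay within 1.5-fold for 66 of the 72 genes (91.7%, against 48.3% of all genes), and the arrays of the groups were fully separated in 21 (29.2%, against 38.4%).

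Mrps5, a conserved protein of the small subunit near the entry of the messenger RNA, read 9.37, 9.40 and 9.34 in euthyroid liver, 9.38, 9.25 and 9.28 with T3, and 8.88, 9.01 and 8.58 with T3 and siRNA. The siRNA arrays lay under all 6 others, which overlapped. The change from T3 was -0.48 ± 0.12 (adjusted p = 0.0239), and the call was lost in 6 of 18 settings. A second probe of Mrps5, detected on 7 of the 9 arrays, gave -0.24 (adjusted p = 0.56 over the probes).

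Mrpl39, a protein of the large subunit that resembles part of a threonyl-tRNA synthetase, read 6.66, 6.79 and 6.63 in euthyroid liver, 7.00, 7.43 and 7.41 with T3, and 6.35, 6.61 and 7.04 with T3 and siRNA. The T3 and siRNA groups overlapped on 1 array of each. The change from T3 was -0.61 ± 0.18 (adjusted p = 0.0446), and the call was lost in 10 of 18 settings. Mrps15, which binds the small subunit RNA early in assembly in bacteria, read 8.95, 8.85 and 8.75, then 8.98, 9.49 and 9.19, then 8.83, 8.67 and 8.82 in the same order. Its change of -0.45 ± 0.14 (adjusted p = 0.0498) lay at the threshold and was lost in 13 settings. Of the other genes with low adjusted p-values Mrpl58 gave -0.32 ± 0.10 (adjusted p = 0.0588), Mrpl30 -0.32 ± 0.10 (adjusted p = 0.0608), Mrps12 0.29 ± 0.11 (adjusted p = 0.0905) and Mrpl4 -0.37 ± 0.15 (adjusted p = 0.11).

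The count of 3 lower genes fell to 1 when any single euthyroid array, any single siRNA array or T3 replicate 2 was left out. It was 2 without T3 replicate 1, and 0 without T3 replicate 3 or with median scaling. The 1 higher gene was not called without T3 replicate 1, T3 replicate 3 or any single siRNA array. Over the probes 5 of 112 were called (4.46%, against 14.8% of all probes), 2 higher and 3 lower (8.43% and 6.36% of all probes), among them the dimmer probe of Mrps26, higher by 0.75, and those of Mrpl1 and Mrpl15, which gave -0.51 and -0.69.

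T3 plus siRNA against euthyroid liver gives the combined difference. Here 8 of the 72 genes were lower (11.1%) and 0 higher, against 13.3% and 13.4% of all genes, and 16 had an unadjusted p under 0.05 in limma (22.2%, against 39.6% of all genes). The genes were Mrpl14, Mrps5, Mrpl58, Mrpl23, Mrps35, Mrps34, Mrps7 and Mrps30. Of them Mrpl14, Mrpl23 and Mrps34 were also lower with T3 alone, and Mrps5 was also lower against T3. The comparison shares the euthyroid arrays with the first and the siRNA arrays with the second, so these repeats are not independent. Mrpl14 changed by -0.46 ± 0.10 (adjusted p = 0.0108), Mrpl23 by -0.43 ± 0.11 (adjusted p = 0.0172), Mrps34 by -0.36 ± 0.10 (adjusted p = 0.0316) and Mrps5 by -0.55 ± 0.12 (adjusted p = 0.0112). The call of Mrps34 against euthyroid liver was lost in 8 of 18 settings, that of Mrpl23 in 3, that of Mrps5 in 2 and that of Mrpl14 in 1.

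Mrpl58, known also as ICT1, a peptidyl-tRNA hydrolase that frees stalled mitochondrial ribosomes, read 9.32, 9.14 and 9.10 in euthyroid liver, 9.17, 9.02 and 9.03 with T3, and 8.67, 8.80 and 8.81 with T3 and siRNA. The euthyroid and T3 arrays overlapped and the siRNA arrays lay under both. Its change from euthyroid liver was -0.43 ± 0.10 (adjusted p = 0.0155). Mrps35, a small subunit protein specific to mitochondria, read 10.26, 10.29 and 10.22, then 9.86, 10.36 and 10.05, then 9.85, 9.85 and 9.54. Its T3 arrays overlapped the euthyroid ones and its siRNA arrays lay under both, and its change was -0.51 ± 0.14 (adjusted p = 0.0292). Mrps7, a conserved protein of the small subunit head, changed by -0.29 ± 0.09 (adjusted p = 0.0437) and Mrps30 by -0.33 ± 0.11 (adjusted p = 0.0462). These calls were lost in 13 and 11 of 18 settings.

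Over the whole family the median was -0.07, against -0.02 for all genes, 0 genes differed by more than 1.5-fold (17.9% of all genes did), and the interval lay within 1.5-fold for 60 of 72 genes. Arrays of the groups were fully separated in 29 genes (40.3%, against 46.1% of all genes). Over the probes 8 of 112 were called (7.14%, against 24.4%), 6 lower and 2 higher (12.1% and 12.3% of all probes), the latter the dimmer probes of Mrps31 and Mrps33. The count of 8 genes became 2, 4 or 4 when euthyroid replicate 1, 2 or 3 was left out, 5 or 3 without siRNA replicate 2 or 3, 11 without T3 replicate 2, and 0 with median scaling.

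The make-up of the tissue RNA differed between the groups. The mean log2 signal of 11 stellate cell and fibroblast markers ranged from 8.43 to 8.76 over the euthyroid arrays, from 7.65 to 8.01 with T3 and from 9.08 to 9.30 with siRNA, and 7 rose and 2 fell from T3 to siRNA. That of 9 macrophage markers ranged from 9.45 to 9.50, from 9.72 to 9.90 and from 10.22 to 10.28 in the same order (4 rose), that of 11 hepatocyte markers from 13.24 to 13.29, from 13.38 to 13.52 and from 12.97 to 13.08 (6 fell), and that of 7 proliferation genes from 6.58 to 6.78, from 6.52 to 7.12 and from 7.92 to 9.20 (5 rose). From T3 to siRNA 11.7% of all genes rose and 7.72% fell. Against these stand 63.6% and 18.2% of the stellate cell and fibroblast markers. The rises were 44.4% of the macrophage markers and 71.4% of the proliferation genes, and the falls 54.5% of the hepatocyte markers. The mean log2 signal of the 72 mitoribosomal genes ranged from 10.64 to 10.68, from 10.57 to 10.64 and from 10.53 to 10.62. For the 25 small subunit genes it ranged from 10.69 to 10.78, from 10.63 to 10.68 and from 10.59 to 10.66, highest on the euthyroid arrays. For the 47 large subunit genes the ranges were 10.61 to 10.63, 10.55 to 10.63 and 10.50 to 10.60, and the euthyroid and T3 arrays overlapped. The part of these shifts in the falls of Mrps5, Mrpl58 and Mrps35 on the siRNA arrays was not tested.

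Some other genes of mitochondrial translation, but not all, had larger changes with T3 than the 72 genes, each by its brightest probe. Changes ran from -0.74 to 0.85 in the translation factors and from -0.72 to 0.61 in the assembly genes. In the 72 genes they ran from -0.52 to 0.59, and in the mitoribosomal genes with other names from -0.36 to 0.16. Dap3, the small subunit protein that binds GTP and was named for its link to cell death, fell by 0.36 on the log2 scale (-0.36 ± 0.10, adjusted p = 0.035), the only one called of 3 measured mitoribosomal genes with other names. Of 13 translation factors 3 rose and 1 fell with T3 (23.1% and 7.69%, against 7.8% and 10.6% of all genes). Gfm1, the elongation factor that moves the ribosome along, rose by 0.85 ± 0.11 (adjusted p = 0.00278) and Slirp, a partner of Lrpprc in stabilising mitochondrial messenger RNA, by 0.58 ± 0.11 (adjusted p = 0.00831), while Mtif2, the initiation factor, gave -0.74 ± 0.12 (adjusted p = 0.00552). Of 20 genes of mitoribosome assembly and RNA modification 2 rose and 2 fell, 10% each and close to the shares of all genes. Mterf4, which brings the RNA methyltransferase Nsun4 to the ribosome, gave -0.72 ± 0.13 (adjusted p = 0.00786) and Mterf3 0.61 ± 0.16 (adjusted p = 0.0288). Of 19 genes of mitochondrial aminoacyl-tRNA synthesis 0 passed in limma with T3 (6 had an unadjusted p under 0.05, 31.6% against 35% of all genes). With T3 plus siRNA 7 of them were lower than in euthyroid liver (36.8%, against 13.3% of all genes), led by the asparaginyl enzyme Nars2 (-1.14 ± 0.15, adjusted p = 0.00143).

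Beside these, respiratory complex I, to which several products of the mitoribosome belong, had 11 of 34 nuclear-encoded subunits higher and 0 lower with T3, with a median of 0.22 (32.4% higher, against 7.8% of all genes). The 72 mitoribosomal genes had 0 higher and 8 lower, the latter near the 10.6% of all genes. The cytosolic ribosomal proteins had 9 of 53 genes lower with T3 (17%, against 10.6% of all genes) and 0 higher, with a median of -0.16. With siRNA added to T3, 17 of the 53 were higher and 0 lower, with a median of 0.28 (32.1% higher, against 11.7% of all genes). The mitoribosomal genes there had 1 and 3. Between T3 plus siRNA and euthyroid liver the cytosolic median was 0.10, with 10 higher and 2 lower (18.9% and 3.77%, against 13.4% and 13.3% of all genes). The differences between these lists were not tested. Of 10 regulators of mitochondrial biogenesis 1 passed with T3, Pprc1 (-0.62 ± 0.14, adjusted p = 0.0163), or 10% lower against 10.6% of all genes. Among the same 10, 1 rose and 2 fell with siRNA added to T3 (10% and 20%, against 11.7% and 7.72% of all genes). Those that fell were Ppargc1b, a coactivator of mitochondrial genes (-1.35 ± 0.14, adjusted p = 0.000701), and its relative Ppargc1a (-0.76 ± 0.23, adjusted p = 0.0449). Of 8 genes of general mitochondrial content, such as citrate synthase, 0 passed in limma with T3 (0 had an unadjusted p under 0.05).

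**Figure D5:**
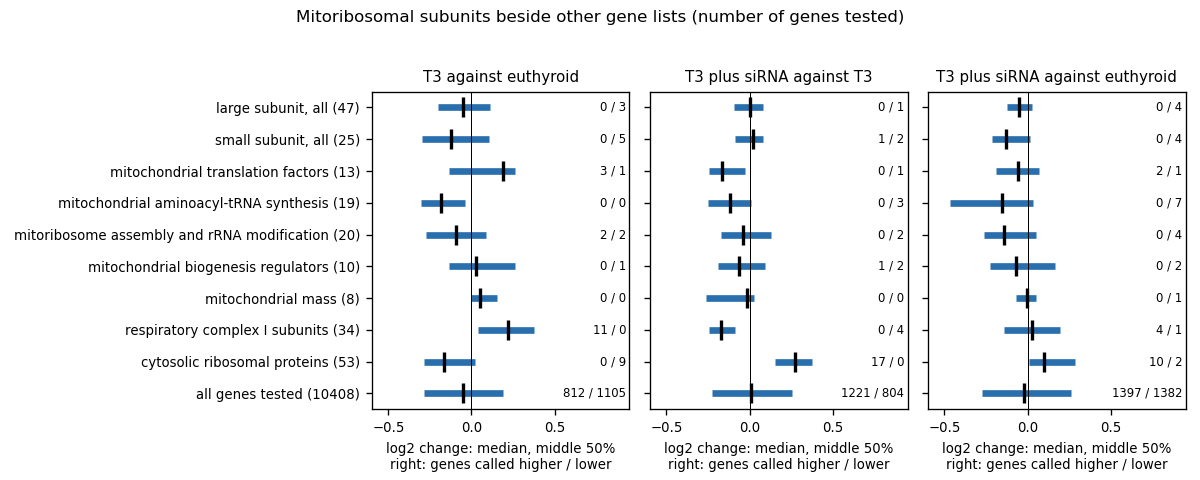
Median (black tick) and middle 50% (bar) of log2 changes for the 2 mitoribosomal subunits and other gene lists in the 3 comparisons, with the number of genes tested in brackets and the genes called higher and lower at the right. Both mitoribosomal bars cross 0 in all 3 panels. The small subunit median lies at -0.12 with T3 and at -0.13 with T3 plus siRNA against euthyroid liver. Complex I lies to the right with T3, and the cytosolic ribosomal proteins to the right once siRNA is added.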

How the data were processed

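The authors deposited linear probe signal intensities before normalization with a detection p-value per probe and array, per the file headers, and a second table of intensities. Ranked, the first column of the latter lies within 0.0693% of the ranked signals averaged over arrays, as quantile normalization gives. The other columns were not compared in this way. Per the labels' protocols, RNA was extracted with Trizol and an RNeasy kit and copied into biotinylated cRNA. Partek 6.6 is named in the submitters' processing notes without a step. Here, limma 3.58.1 under R 4.3.3 was used. Its neqc step infers negative controls from detection p-values for background correction, then applies an offset (16), quantile scaling and log2; the offset makes changes of dim probes too small. One model with a mean for each of the 3 groups was run on 10408 genes (brightest probe per symbol) and again to the 18581 probes that passed, two-sided, with Benjamini-Hochberg adjustment. The code was tested on simulated data. Genes named with full values are the 8 with the lowest adjusted p in each comparison, all called members, members singled out by role and up to 3 called genes of each other list. The members and lists were chosen with earlier results of these data known. The respiratory complex I and cytosolic ribosomal lists were taken by symbol. No pairing by replicate number was seen: same-numbered arrays of different groups had deviations from their group means correlated at -0.0557 to 0.0284. With 3 arrays a group a weak pairing may be missed. Coordinates and promoters are those of RefSeq on GRCm38.p6. Alternatives changed the background step, scaling, filter, probes, weights, block and samples.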

Additional observations from a re-analysis of the deposited data

How the results depend on the processing

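Alternatives changed 1 choice at a time, except that the setting without background correction also drops the offset, and the authors' normalized values replace background correction, offset and scaling together. Both of these settings appear to amount to quantile-normalized signals, though only the first column of the authors' values was compared. They are therefore not taken as separate checks. Counts are of mitoribosomal genes called or of probes called. For T3 against euthyroid liver, siRNA against T3 and siRNA against euthyroid liver in turn, the main values were 0, 1 and 0 genes higher, 8, 3 and 8 lower, and 12, 5 and 8 probes. With no background correction 4 genes were higher with T3 and 1 in the last comparison, 5 were lower with siRNA against T3, and 21, 8 and 15 probes were called. The authors' normalized values gave 4, 1 and 5 genes likewise and 20, 8 and 15 probes. Probes detected on all 9 arrays gave 3, 1 and 5 genes, and 19 and 17 probes in the first and last comparison. Median scaling moved the median of all genes to -0.10, 0.17 and 0.09 and that of the mitoribosomal genes to -0.13, 0.11 and -0.0036, with 1, 0 and 0 genes lower, 0 higher with siRNA against T3, and 2, 2 and 4 probes. No filter gave 4, 1 and 5 lower, 0 higher with siRNA against T3, and 7, 1 and 5 probes. The mean of a gene's probes gave 2 genes higher with siRNA against T3 and 1 in the last comparison, a median of 0.011 with T3, and a reversed sign for Mrps18b with T3 (0.014, adjusted p = 0.954 in limma). Array weights gave 4 genes higher with T3, 1 in the last comparison and 19 probes there. Fits to only the 2 groups compared gave 1 gene higher with T3, and 0 higher, 0 lower and 0 probes with siRNA against T3. With the replicate number as a block, which the data did not bear out as a pairing, 1 gene was higher and 3 were lower with T3, and 0 genes were higher and 3 probes called with siRNA against T3. Leaving out 1 array at a time gave 0 to 2, 0 to 1 and 0 to 1 genes higher, 1 to 8, 0 to 2 and 2 to 11 lower, medians of -0.08 to -0.04, -0.03 to 0.05 and -0.09 to -0.03, and 4 to 13, 0 to 3 and 3 to 12 probes. Over the 20 called results of named genes and 18 settings, 223 values kept their call, 136 lost it and 1 reversed. The causes of these moves were not tested. The slide as a block was not run, since the file headers name no slide. The number of arrays, 3 a group, limits the precision.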
